A study of Mus musculus with 5 samples.

Results

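Cluster 15 was a small cluster of CD45+ cells from the thyroids of NOD mice. Its members were all cells that the deposited cell table assigned to cluster 15, which gave 116 of 10275 cells, in one of 17 clusters. The cluster had no cell type name, and its genes did not point to 1 cell type. By the counts of 2 genes its cells fell into 23 cells with Siglech transcripts, 11 cells with high Jchain counts and 82 remaining cells, called Myl10 Il2ra Dntt cells after 3 genes that were higher in them than in the other cells of the series. These 3 sets were defined after the data were seen, so values set against other cells are descriptions without a test.

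The ICI group (immune checkpoint inhibition) comprised male and female NOD.WT mice, 4 to 6 weeks old at the start, that received anti-PD-1 (clone RPM1-14) plus anti-CTLA-4 (clone 9D9) antibodies at 10 mg/kg per dose, injected intraperitoneally 2 times a week for 4 weeks. Mice of the isotype group had the same strain and age and received isotype control antibodies (clones 2A3 and MPC11). Live CD45+ cells, the leukocytes, were sorted from collagenase-digested thyroids of 16 ICI mice and 10 isotype mice. The cells were pooled over mice into 4 ICI libraries and 1 isotype library, and nothing in the labels ties a library to a number of mice.

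Plasmacytoid dendritic cells sense viral and self nucleic acids through endosomal Toll-like receptors and are known as the main source of type I interferon. Plasma cells are the antibody-secreting end stage of B cells, with an enlarged endoplasmic reticulum, and Jchain joins the units of secreted IgM and IgA. T cell precursors rearrange their receptor genes in the thymus, where Dntt adds bases at the joints and Il2ra, the interleukin-2 receptor alpha chain, marks an early stage before Cd4 and Cd8 are switched on. The thymus lies close to the thyroid. In thyroid autoimmunity, plasma cells and thyroid antibodies are classical features of the infiltrate.

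The table held 53096371 UMIs (unique molecular identifiers, counted transcripts). The ICI libraries had between 3858251 and 32296759 UMIs, with median depths of 1753 to 4321 UMIs per cell, and the isotype library had 8130081, with a median of 3622. Ptprc, which encodes CD45, had a UMI in every cell of ICI 4 and of the isotype library, but in 92.3%, 84.1% and 82.4% of the cells outside cluster 15 in ICI 1, 2 and 3. ICI 2 and ICI 3 shared 140 cell barcodes, 3 of them within cluster 15, where all 3 copies with fewer UMIs lay in ICI 3. The doublet caller Scrublet called 16 of 10275 cells (0.156%), too few to have worked, and none in cluster 15, although 14 of the 116 cells were among the 5% with the highest scores.

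Cluster 15 held 11 of 1523 cells in ICI 1 (0.722%, 95% interval 0.361 to 1.29), 4 of 1219 in ICI 2 (0.328%, 0.0895 to 0.838), 5 of 1163 in ICI 3 (0.43%, 0.14 to 1.0) and 82 of 5018 in ICI 4 (1.63%, 1.3 to 2.02). It held 14 of 1352 cells in the isotype library (1.04%, 0.567 to 1.73). The intervals are exact Clopper-Pearson intervals and cover counting error only. One ICI library lay above the isotype library and 3 lay below it. The share averaged 0.779% ± 0.594 in ICI libraries (SD, n = 4), against 1.04% in the isotype library, a difference of -0.257 percentage points (two-sided exact permutation p = 0.8, where 4 libraries against 1 cannot go below 0.2). ICI 1, ICI 2 and ICI 3 have the related titles m1, m1a and m1b, and ICI 2 and ICI 3 shared 140 cell barcodes. The labels do not say whether they are separate preparations, so the ICI libraries may not be independent replicates. With ICI 1 to 3 summed, the difference had the opposite sign, at 0.0376 percentage points. The cell names of ICI 4 carried 2 suffixes, with 42 of 2419 and 40 of 2599 cells in the cluster. The labels do not say what the suffixes stand for.

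The 3 sets were spread unevenly over the libraries. Siglech cells numbered 4, 4, 5 and 4 in ICI 1 to 4 and 6 in the isotype library, so every library held some. Jchain cells numbered 4, 0, 0 and 2 in ICI 1 to 4 and 5 in the isotype library. For ICI 2 and ICI 3, 0 cells allows a share of up to 0.246% and 0.258%. The remaining cells numbered 3, 0, 0 and 76 in ICI 1 to 4 and 3 in the isotype library. Without ICI 4 the cluster therefore held 6 remaining cells in all, and the share of cluster 15 in the other 3 ICI libraries averaged 0.493% ± 0.205 (SD, n = 3), below the isotype value in each of them.

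**Figure D1:**
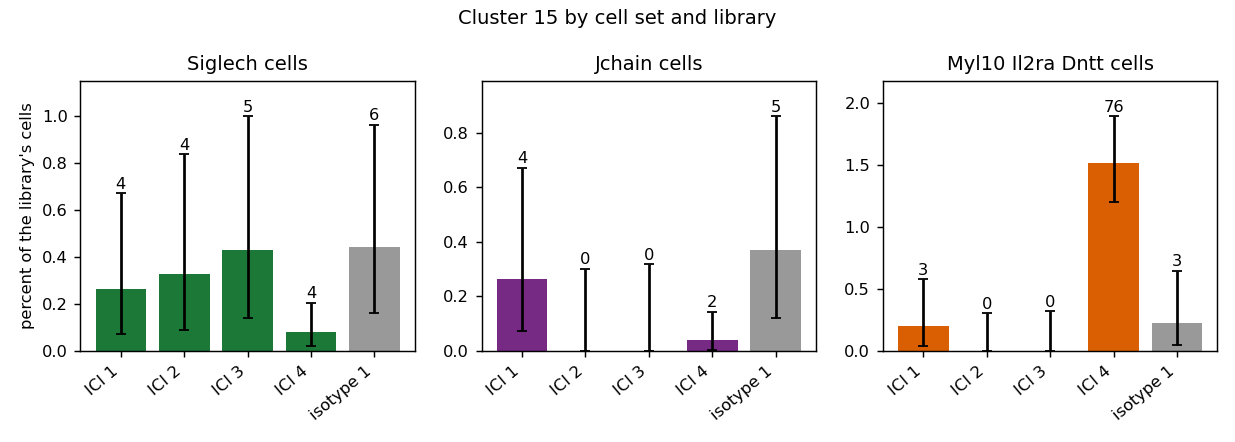
Share of each library's cells (percent, vertical axis) in the 3 cell sets of cluster 15, for ICI 1 to 4 (coloured) and isotype 1 (grey). Error bars are exact 95% binomial intervals and the numbers are cells. Siglech cells occur in all 5 libraries, while 76 of the 82 Myl10 Il2ra Dntt cells lie in ICI 4.

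The Jchain cut fell in a gap of the counts, and the Siglech cut did not. A Jchain cell had at least 10 Jchain UMIs. The lowest of the 11 had 39 and the next 319, while the highest count in another cell of the cluster was 1. A Siglech cell had at least 1 Siglech UMI and no Jchain call. Of the 23, 22 had 3 or more Siglech UMIs and 1 had 1 or 2, and no Jchain cell had any. In GRCm38 coordinates of GENCODE M21, Siglech is a protein-coding gene at chr7:55768178-55778925 (plus strand) and Jchain one at chr5:88519809-88527891 (minus strand). Myl10 lies at chr5:136693146-136701094, Il2ra at chr2:11642807-11693193 and Dntt at chr19:41029275-41059525, all on the plus strand.

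**Figure D2:**
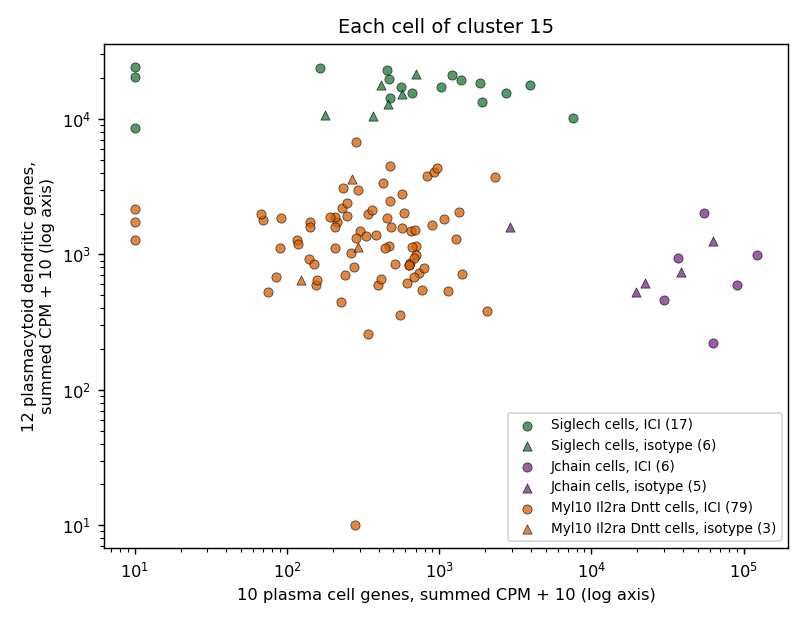
Each point is 1 of the 116 cells, with the summed CPM (UMIs scaled by the cell's total, with 10 added) of 10 plasma cell genes (horizontal, log axis) and of 12 plasmacytoid dendritic cell genes (vertical, log axis). Circles are ICI cells and triangles isotype cells. The 23 Siglech cells lie at the top and 10 of the 11 Jchain cells at the far right. The 82 remaining cells lie below the Siglech cells and left of these 10, and the other Jchain cell lies near them. Siglech and Jchain are among the summed genes and chose the cells, so part of the separation is built in.

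The genes that led the whole cluster over the other cells had their highest levels in the Siglech and Jchain cells, although the remaining cells held most of the UMIs of some of them. Levels are given as CPM, a gene's UMIs scaled by the total UMIs of the same cells, and are not corrected for gene length. Ranked by the log2 fold of CPM (with 10 added) within each library and averaged over ICI 1, ICI 3, ICI 4 and isotype 1, the libraries with at least 5 cells of the cluster, the first were Mzb1 (5.51), a chaperone of antibody assembly, Slpi (5.42), a secreted protease inhibitor, Plac8 (3.66) and Ly6d (3.53), a surface protein of early lymphoid and plasmacytoid cells. Of the 20 leading genes, 16 had their highest level in Siglech cells and 4, Mzb1, Slpi, Txndc5 and Xbp1, in Jchain cells. The 11 Jchain cells held 97.1% of the cluster's Mzb1 UMIs and 98.3% of its Slpi UMIs. The 82 remaining cells held 82.4% of its Plac8 UMIs, 78.1% of Gria3, 73.0% of Fads2 and 60.2% of Hmgn3, and 48.8% of Ly6d. Plac8 stood at 1563 CPM in Siglech cells and 1460 CPM in the remaining cells. With cells pooled instead of averaged by library, 7 of the 20 genes stayed among the 20. The lowest genes, among those with a UMI in at least 50% of the other cells, were the lymphocyte genes Ms4a4b (-4.02), AW112010 (-3.68), Ltb (-3.12), Cd3e (-2.97) and Inpp4b (-2.97). All of these had 0 CPM in ICI 3, where every cell of the cluster was a Siglech cell. The cluster as a whole did not lack them. Cd3e had a UMI in 78.4% of its cells against 85.3% of other cells, and AW112010 in 51.7% against 50.4%. Cd3e had 190 CPM in Siglech cells, 144 in Jchain cells and 1038 in the remaining cells.

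Siglech cells had the genes of plasmacytoid dendritic cells and are called plasmacytoid dendritic-like here. All 12 genes of that marker list stood at least 1.5-fold above the other cells of the series, with a median log2 fold of 4.37 (median over all genes -0.04, with 11.5% of genes at 1.5-fold above). Siglech, which chose the cells, is 1 of the 12. Cox6a2, Klk1, Ly6d and Tcf4, which did not, were also among the 10 leading genes, ranked over cells pooled from all libraries. Cox6a2 and Tcf4 had UMIs in the Siglech cells of every library. Klk1 had no UMI in those of ICI 2 and ICI 4, and Ly6d had none in those of ICI 4. Siglech, an inhibitory sialic acid receptor, had 2430, 2638, 3849 and 3131 CPM in ICI 1 to 4 and 924 CPM in isotype Siglech cells. Tcf4, the transcription factor that specifies the lineage, had 1055, 1273, 802 and 1893 CPM in ICI 1 to 4 and 584 in isotype. Irf8, a transcription factor of dendritic cells, had 1696, 2683, 3127 and 2621 CPM in ICI 1 to 4 and 997 in isotype. Irf8 had a UMI in all 23 cells and Tcf4 in 21. No cell had a UMI of Lyz2 or Naaa, genes of phagocytes and of cross-presenting dendritic cells.

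The endosomal sensing genes were present and interferon-induced genes were mixed. Of 16 nucleic acid sensing genes, 9 stood at least 1.5-fold above and 3 below the other cells, against 11.5% and 16.2% of all genes. Unc93b1, which carries Toll-like receptors to endosomes, had 841 CPM in Siglech cells and 91.1 in the other cells of the series. Slc15a4 had 145 against 21.7 CPM, Tlr7, a sensor of single-stranded RNA, 91.9 against 8.33, and Tlr9, a sensor of DNA, 59.1 against 3.06. Both receptors are thinly covered and rest on 14 and 9 UMIs. Tlr1, Tlr2, Tlr3 and Tlr4 had 0 UMIs in the 23 cells. Of 21 measured interferon response genes, 13 had a UMI in Siglech cells, 6 stood at least 1.5-fold above and 12 below the other cells, and Ifit1, Ifit3, Oasl2, Rsad2, Rtp4 and Zbp1 had 0 UMIs among 152277 in all. Among chemokine receptors, Ccr9, the receptor for the thymus and gut chemokine Ccl25, had 847 CPM against 126, while Ccr7 had 78.8 against 627 and Cxcr6 13.1 against 372.

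Siglech transcripts also occurred in cluster 7, but at lower levels and with other genes. Of 67 cells in the series with 3 or more Siglech UMIs, 22 lay in cluster 15, 44 in cluster 7 and 1 in cluster 16. The 22 had 1830 CPM of Siglech, 885 of Tcf4 and 0 of the macrophage genes C1qa and Lyz2. The 44 had 562 CPM of Siglech, 149 of Tcf4, 4626 of C1qa and 3455 of Lyz2. Across 2000 variable genes, the Siglech cells were most like cluster 16 (Pearson r = 0.638 between log2 CPM profiles, as a description, since both share libraries and gene abundance). Above cluster 16 they had Ly6d (4131 against 3.46 CPM), Pltp (933 against 0) and Cd7 (1274 against 14.5). Below it they had Il1b (6.57 against 2159 CPM), Naaa (0 against 847) and Lyz2 (0 against 718).

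**Figure D3:**
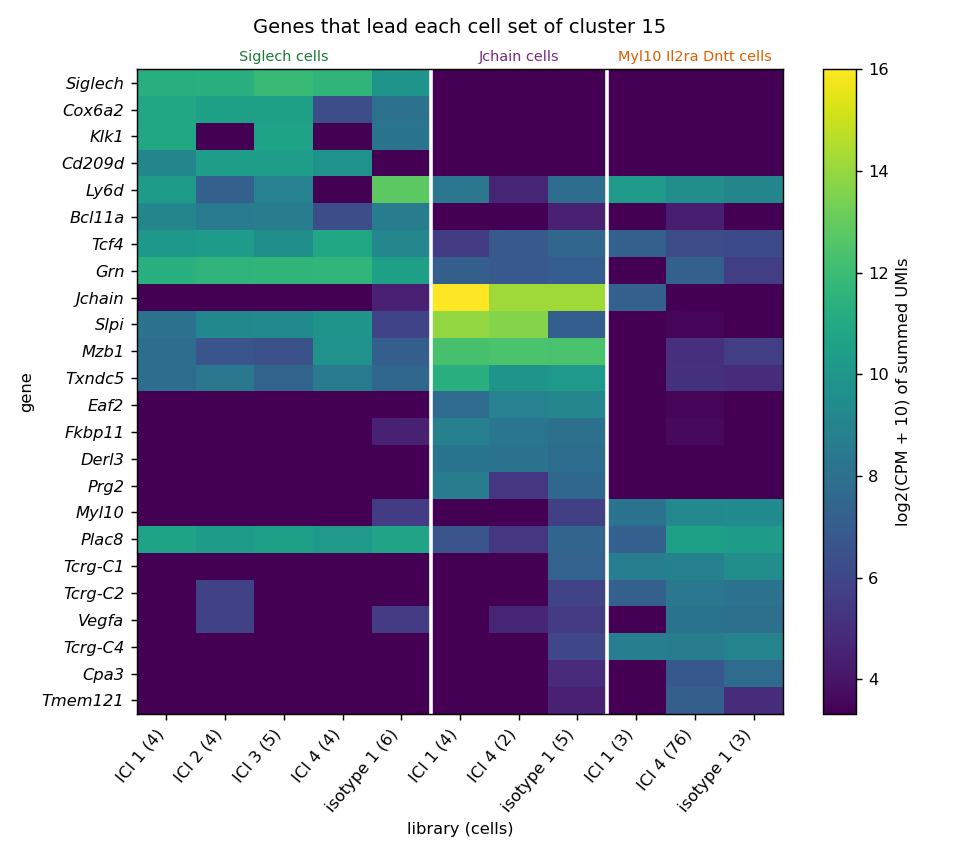
Level of the first 8 named genes of each set, left to right Siglech, Jchain and Myl10 Il2ra Dntt cells, in each library with cells of the set (ICI before isotype, number of cells in brackets). Colour is log2(CPM + 10) of UMIs summed over those cells. Siglech and Jchain are high in 1 block each because they chose the cells. Myl10 is highest in the third block, and Plac8 is shared by Siglech cells and Myl10 Il2ra Dntt cells.

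Within Siglech cells, antigen presentation genes stood higher in the ICI libraries than in the isotype library. Cd74, the invariant chain of MHC class II, had 17697, 18282, 12428 and 15653 CPM in ICI 1 to 4 and 3756 in isotype. H2-Aa, a class II chain, had 4906, 6139, 4089 and 6043 CPM in ICI 1 to 4 and 1641 in isotype. All 7 class II genes with at least 20 UMIs, and 6 of 10 class I genes, lay above isotype in each of the 4 ICI libraries, as did 207 of the 1390 genes with at least 20 UMIs in Siglech cells (14.9%). H2-K1, a class I chain, had 321, 773, 882 and 655 CPM in ICI 1 to 4 and 182 in isotype. Cells differed within libraries. Of the 6 isotype cells, 2 had no H2-Aa UMI, with 4 and 0 Cd74 UMIs at depths of 19720 and 8890 UMIs, and the other 4 had 31 to 36 H2-Aa UMIs. H2-Aa had a UMI in 4 of 4, 3 of 4, 5 of 5 and 3 of 4 cells of ICI 1 to 4. Genes of the lineage stood partly the same way. Of 11 plasmacytoid dendritic genes, 6 lay above isotype in each ICI library: Siglech, Bst2, Ccr9, Tcf4, Atp1b1 and Irf8. Another 1 of the 11 lay below isotype in each. Siglech chose the cells, so its level is not independent of that choice. Of 5 sensing genes, 4 lay above isotype in each ICI library. With 1 isotype library of 6 cells and sets defined after the data were seen, no test was made. The ICI libraries may also not be independent of each other.

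Other features of the isotype Siglech cells moved along. Their median depth was 12134 UMIs, against 6524, 6167, 928 and 3029 in ICI 1 to 4. The proliferation genes Mki67, Stmn1, Top2a and Ccnb2 had 32, 61, 19 and 31 UMIs in the 6 isotype cells and none in the 17 ICI cells. Against the 3 counts that 0 of 70008 UMIs allows, Mki67 was at least 9.08-fold and Stmn1 at least 17.3-fold lower in the pooled ICI UMIs. This limit covers counting error only, not the spread between cells or libraries. The 6 isotype cells had 0, 12, 10, 8, 0 and 2 Mki67 UMIs. Ly6d had 593 UMIs in the 6 isotype cells (7208 CPM, all 6 cells) and 36 in 5 of the 17 ICI cells. Of the isotype cells, 3 were among the 5% with the highest doublet scores and 2 had 5 or more of 10 T cell genes, against 0 and 2 of the ICI cells. Without the 3 high-scoring cells all 7 class II genes were still above isotype in each ICI library (Cd74 5721 CPM in isotype, lowest ICI value 12428), and so they were among G1 cells (6581 CPM, lowest ICI value 11991). Without cells holding 5 or more T cell genes the class I count was 2 of 10. Their part in the difference was not tested.

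Jchain cells had the genes of plasma cells and are called plasma cell-like here. All 10 genes of the plasma cell list stood at least 1.5-fold above the other cells (median log2 fold 5.35, median over all genes -0.25, with 2.65% of genes at 1.5-fold above). Besides Jchain, which chose the cells, Mzb1 and the immunoglobulin genes Igha and Iglc2 were among the 10 leading genes. Jchain had 65752 and 18549 CPM in the cells of ICI 1 and ICI 4 and 18984 CPM in those of the isotype library. Mzb1 had 5078 and 5480 CPM in ICI 1 and ICI 4 and 5319 in isotype, at 27 to 351 UMIs per cell. The totals behind these CPM include immunoglobulin UMIs. These were 31.1% to 73.1% of a cell's UMIs in ICI 1, 15.8% and 52.0% in ICI 4 and 1.1% to 48.3% in isotype. A high share lowers the CPM of every other gene in Jchain cells. Slpi had 15704 and 12797 CPM in ICI 1 and ICI 4 and 130 in isotype, and varied between cells: it had 1699, 4, 56 and 7 UMIs in the 4 ICI 1 cells, 622 and 228 in the 2 ICI 4 cells and 1, 4, 2, 12 and 2 in the isotype cells. The highest ICI 1 cell held most of the ICI 1 UMIs, while both ICI 4 cells lay above every isotype cell. Sdc1, the surface marker CD138, had UMIs in 9 of 11 cells and Tnfrsf17, the survival receptor BCMA, in 6. The B cell genes Ighd and Cd22 had 0 UMIs, and Pax5, which holds B cell identity, had 1. Outside cluster 15, Jchain had a UMI in 1.85%, 0.247%, 0% and 0.365% of cells in ICI 1 to 4 and in 0.822% of isotype cells, and 11 of the 15 cells of the series with 10 or more Jchain UMIs lay in cluster 15.

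The secretory genes stood high as a group. All 12 genes of the secretory and endoplasmic reticulum list were at least 1.5-fold above the other cells, against 2.65% of all genes, with a median log2 fold of 2.16. Hsp90b1, the endoplasmic chaperone Grp94, had 2641 and 7182 CPM in the Jchain cells of ICI 1 and ICI 4 and 4229 in isotype, against 421 in the other cells of the series. Hspa5, the chaperone BiP, had 623 and 1129 CPM in ICI 1 and ICI 4 and 1040 in isotype, against 438. Xbp1, the transcription factor of the unfolded protein response, had 2846 and 2906 CPM in ICI 1 and ICI 4 and 1040 in isotype, against 101. Pdia6, a disulfide isomerase, had 729 CPM over the 11 cells against 150.

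The promoters of these genes are shown because all 12 genes of the list stood above the other cells. One element, the endoplasmic reticulum stress element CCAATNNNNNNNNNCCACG, is a known target of the unfolded protein response. It was searched on both strands in RefSeq windows (GRCm38.p6) from 250 bases before to 50 after the start of each gene. Of the 12 list genes 11 had a window, and 4 of them, Calr, Hsp90b1, Hspa5 and Pdia6, held a match, as did 37 of all 27025 genes with a window (0.137%). A match is a description of the letters and not a bound site. The element was chosen with the values seen and is known from this response, so its matches in these genes are no test. The 250 bases before the start of 3 of them are printed in the gene's direction, with matches in capitals. They are chr2:34771840-34772089 (plus strand) for Hspa5, with the match starting at -65 from the start site, chr10:86705445-86705694 (minus strand) for Hsp90b1, with matches at -212 and -107, the second in reverse, and chr12:17266339-17266588 (plus strand) for Pdia6, with a match at -98.
Hspa5: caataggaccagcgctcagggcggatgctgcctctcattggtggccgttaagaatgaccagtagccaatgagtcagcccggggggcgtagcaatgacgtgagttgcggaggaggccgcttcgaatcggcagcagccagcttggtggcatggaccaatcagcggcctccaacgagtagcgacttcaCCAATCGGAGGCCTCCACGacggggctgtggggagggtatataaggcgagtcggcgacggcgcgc
Hsp90b1: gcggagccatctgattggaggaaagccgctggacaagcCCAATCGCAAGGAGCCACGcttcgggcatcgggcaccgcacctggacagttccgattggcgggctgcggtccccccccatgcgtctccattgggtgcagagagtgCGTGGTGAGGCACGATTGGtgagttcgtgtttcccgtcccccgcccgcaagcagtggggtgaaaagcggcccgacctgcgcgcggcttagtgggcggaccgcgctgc
Pdia6: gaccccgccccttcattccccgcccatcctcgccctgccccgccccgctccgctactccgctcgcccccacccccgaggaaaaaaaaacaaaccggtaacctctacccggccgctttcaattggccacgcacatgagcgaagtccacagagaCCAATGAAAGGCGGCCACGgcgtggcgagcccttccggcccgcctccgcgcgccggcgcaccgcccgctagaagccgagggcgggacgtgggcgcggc

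Each Jchain cell put nearly all of its heavy chain constant transcripts on 1 gene. In ICI 1, 2 cells used Igha, with 98.7% and 100% of their heavy constant UMIs, and 2 used Ighg2b, with 99.1% and 100%. Both ICI 4 cells used Ighg1, with 95.7% and 96.2%. In the isotype library 2 cells used Ighg2b, with 97.0% and 99.9%, and 3 used Ighm, with 99.0%, 94.4% and 93.6%. The switched classes IgA and IgG thus made up all 6 ICI cells, from ICI 1 and ICI 4, and 2 of the 5 isotype cells, without a test at this number of cells. The Ighm cell at 94.4% rests on 17 of 18 heavy constant UMIs. That cell had 39 Jchain UMIs, UMIs of 8 of 10 T cell genes and a doublet score among the highest 5%. All 11 used the kappa constant gene Igkc most. Immunoglobulin transcripts made up 70.8%, 59.9%, 31.1% and 73.1% of the UMIs of the 4 ICI 1 cells, 15.8% and 52.0% of the 2 ICI 4 cells and 23.1%, 8.67%, 1.1%, 48.3% and 20.8% of the 5 isotype cells.

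Some variable segments recurred between cells. The 2 Ighg2b cells of the isotype library both had Ighv1-26 (2910 and 3571 UMIs) with Igkv1-135 (4587 and 5109). Of the 3 Ighm cells, 2 had Ighv4-1 (1203 and 88 UMIs) with Igkv10-96 (1561 and 163), and the third had Ighv1-55 with Igkv4-56. The leading heavy segments of the 5 ICI cells that had one all differed, while 1 ICI 1 cell and 1 ICI 4 cell shared the leading light segment Igkv6-23 (3812 and 3928 UMIs). Over all ICI cells of the series, 1 cell had 50 or more UMIs of Ighv1-26 and 1 of Igkv10-96. One further isotype cell outside cluster 15 had 2754 UMIs of Ighv4-1 and 3922 of Igkv10-96. In the other isotype cells these segments had a median of 1 UMI where seen. Segment counts are uncertain, since reads can split between near-identical segments, and cells that share a segment pair cannot be told to be a clone from counts alone.

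**Figure D4:**
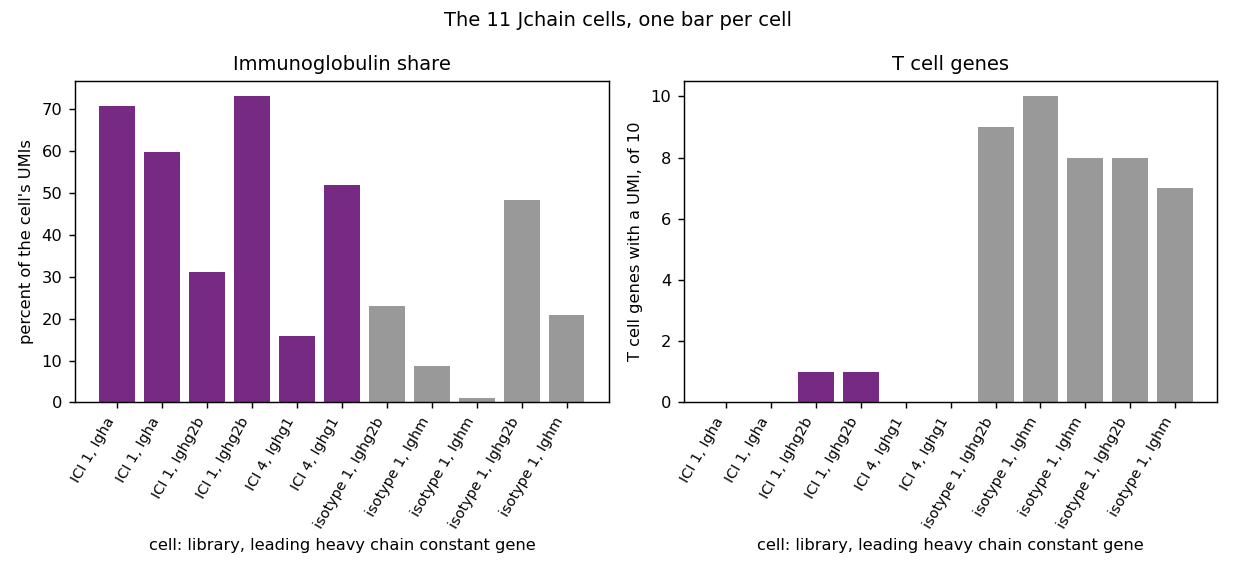
One bar per Jchain cell, labelled with library and leading heavy chain constant gene, for 6 ICI cells (purple) and 5 isotype cells (grey). The left panel gives immunoglobulin UMIs as a percent of the cell's UMIs and the right panel the number of 10 T cell genes with a UMI, 0 or 1 in ICI cells and 7 to 10 in isotype cells.

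T cell genes moved with the group among Jchain cells. The 5 isotype cells had UMIs of 9, 10, 8, 8 and 7 of 10 T cell genes, with 18, 10, 11, 3 and 6 Cd3e UMIs. The 6 ICI cells had 0 or 1 of the 10. Median depths were 24440 and 33210 UMIs in ICI 1 and ICI 4 and 27618 in isotype, and 1 isotype cell, the one with 39 Jchain UMIs, was among the 5% with the highest doublet scores. The part of these T cell transcripts in the values of the isotype Jchain cells was not tested. Jchain cells were most like cluster 14 (r = 0.557 over 2000 genes, a description). They had more Xbp1 (2001 against 98.6 CPM) and Fkbp11 (326 against 2.99) than cluster 14, and less Ccr7 (11.8 against 922), Ebf1 (11.8 against 605) and Bank1 (14.7 against 629), which are genes of B cells before secretion.

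The remaining 82 cells were led by Myl10, a myosin light chain (650 CPM against 7.19 in the other cells of the series), Plac8 (1460 against 60.4), the T cell receptor gamma constant genes Tcrg-C1 (484 against 22.4), Tcrg-C2 (327 against 12.2) and Tcrg-C4 (394 against 19.2), Vegfa (279 against 10.1) and Cpa3 (106 against 0.251). The gamma constant genes are close copies of each other, so the division of reads among them is uncertain. Hes1, a Notch target, had 157 against 9.63 CPM and Il2ra 658 against 68.7. Myl10 ranked first, Il2ra 13 and Dntt 26 among all genes by fold. The thymocyte marker list had 5 of 10 genes at least 1.5-fold above the other cells (6.24% of all genes), Dntt, Cd24a, Arpp21, Ptcra and Rag1. It had 2 genes below at 1.5-fold (9.26% of all genes) and none among the 10 leading genes. The gamma-delta T cell list had 3 of its genes there, Tcrg-C1, Tcrg-C2 and Tcrg-C4, but 4 of 9 measured genes above and 3 below the other cells at 1.5-fold. The mast cell list had Cpa3 there, with 3 genes detected. The set was therefore left without a cell type name.

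Most of these cells lacked the coreceptors and the alpha chain of the T cell receptor while holding CD3 and beta chain transcripts. Trbc2, a beta chain constant gene, had UMIs in 82 of 82 cells and Cd3e in 80, whereas Trac, the alpha chain constant gene, had UMIs in 11 and Cd4 in 10. Of the gamma-delta genes, the delta constant gene Trdc had 349 CPM against 84.0 in the other cells, while the variable segments Trdv4 and Tcrg-V6 had 0 and 1 UMIs. The mast cell list had Cpa3 in 24 of 82 cells and Kit in 34, with Cma1 at 0 UMIs. Cells in S or G2M phase numbered 23 of 82, and the cell cycle list had 14 of 20 genes below and none above the other cells at 1.5-fold, against 9.26% and 6.24% of all genes.

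In ICI 4, where 76 of the 82 cells lay, the set was compared with the clusters most like it, 5, 11 and 2 (r = 0.749, 0.771 and 0.768 over 2000 genes, descriptions over all libraries). Il2ra had 604 CPM in the 76 cells and 22.8, 4.53 and 2.51 CPM in clusters 5, 11 and 2. Hes1 had 157 CPM, against 19.7, 9.07 and 3.01. Cd8a, the CD8 alpha chain, had 31.2 CPM in the 76 cells and 541, 1626 and 592 in clusters 5, 11 and 2. Cd4 had 24.0 CPM, against 114, 494 and 271. Dntt had 1344 CPM in the 76 cells, against 720, 775 and 80.3, and Ptcra, the surrogate alpha chain, had 54.0 CPM against 54.6, 56.7 and 3.51. Mki67, a proliferation gene, had 28.8 CPM against 765, 13.6 and 2.51.

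**Figure D5:**
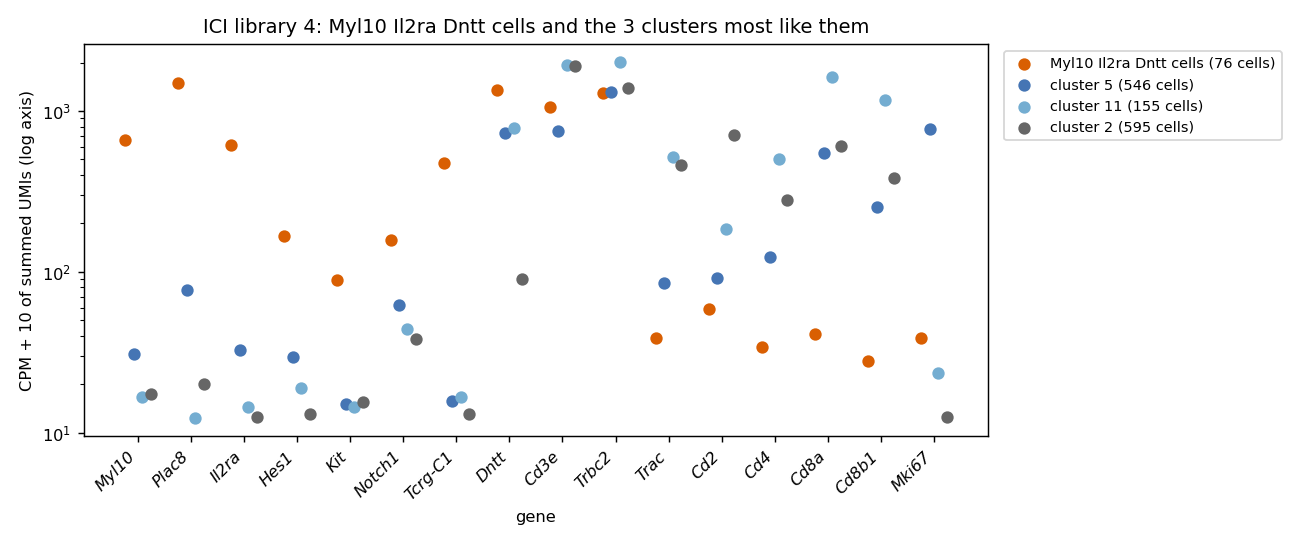
CPM + 10 (log axis) of 16 genes in ICI 4, for the 76 Myl10 Il2ra Dntt cells and for clusters 5, 11 and 2. The 76 cells are highest in Myl10, Plac8, Il2ra, Hes1, Kit, Notch1, Tcrg-C1 and Dntt and lowest in Trac, Cd2, Cd4, Cd8a and Cd8b1.

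Single cells showed the same pattern. In ICI 4, 61 of the 76 cells (80.3%) had no UMI of Cd4, Cd8a and Cd8b1, against 4.03%, 0.645% and 12.9% of the cells of clusters 5, 11 and 2. With each cell thinned to 1500 UMIs, which left out 0 of the 76 cells and 0, 19 and 21 cells of clusters 5, 11 and 2, the shares were 90.8% against 29.1%, 2.21% and 31.4%. Il2ra and Dntt were both seen in 68 of the 76 cells (89.5%), against 11.4%, 0.645% and 0.336%. Thinned, Il2ra had a UMI in 43.4% of the 76 cells and in 2.01%, 1.47% and 0.174% of the cells of clusters 5, 11 and 2.

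Only 6 of the 82 cells came from other libraries, and all 6 were in S phase. The 3 ICI 1 cells had 1791 to 3235 UMIs, with 14, 5 and 0 UMIs of Il2ra and 3, 1 and 1 of Dntt. The 3 isotype cells had 44, 6 and 12 UMIs of Il2ra and 9, 0 and 5 of Dntt, at 3893 to 26604 UMIs. None of the 6 had a Cd8a UMI and 1, an isotype cell with 13 Cd79a UMIs, had Cd4. The levels of the set in ICI and isotype mice therefore rest on 79 and 3 cells, and 76 of the 79 come from ICI 4.

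Between ICI and isotype, edgeR's quasi-likelihood test on UMIs summed over cluster 15 per library called 1 of 5153 genes (0.0194%) at a Benjamini-Hochberg adjusted p under 0.05. ICI 1, 3 and 4 and the isotype library entered, and ICI 2 did not, since it had fewer than 5 cells of the cluster. The gene was Ighv4-1, a heavy chain variable segment, with a single UMI over the ICI libraries, in ICI 4, against 1291 UMIs in the isotype library (4422 CPM). In the isotype library 93.2% of these UMIs came from 1 cell. The isotype to ICI ratio of CPM was 4717 (95% counting interval 845 to 186459), with a fitted log2 fold of -11.82 ± 1.67 (SE) and an adjusted p of 0.0459 by edgeR. The fitted fold depends on the small count added to libraries at 0. The call was lost in 6 of 9 alternatives, 3 of which (at least 10 cells, no shared barcode copies, no ICI 3) are the same fit without ICI 3, with adjusted p from 7.66e-09 (DESeq2) to 0.684 (edgeR, without ICI 4). Without the 5% highest doublet scores it was 0.216 by edgeR, without ICI 3 it was 0.0659, and without ICI 1 it was 0.0122.

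Genes that mark the 3 sets did not pass this test. Myl10 had 14.1, 0, 0 and 594 CPM over the whole cluster in ICI 1 to 4 and 147 in isotype. Jchain had 52278, 0, 0 and 1350 CPM in ICI 1 to 4 and 10504 in isotype, where ICI 1 and isotype held 4 and 5 Jchain cells. Siglech had 375, 2638, 3849 and 47.1 CPM in ICI 1 to 4 and 260 in isotype. In each case the ICI libraries lay on both sides of the isotype library. The adjusted p by edgeR was 0.999 for each, with log2 folds of 0.55 ± 1.6, 1.77 ± 3.49 and 1.69 ± 1.74 (SE). At an unadjusted p under 0.05 there were 112 genes.

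The fixed lists gave no calls in this comparison either. The median fitted log2 fold was 1.64 over 8 tested plasma cell genes, 0.99 over 11 plasmacytoid dendritic genes and 0.37 over 7 thymocyte genes, against -0.02 over all genes tested, and single libraries moved them. The plasma cell median was -2.76 without ICI 1. Without ICI 4 the thymocyte median was -1.46 and the plasmacytoid dendritic median 2.07. All 18 tested cell cycle genes had negative folds (median -1.76). Phase calls moved with this: 36.4%, 0%, 20% and 22% of the cluster's cells were in S or G2M phase in ICI 1 to 4 and 71.4% in isotype, where median depth was 20964 UMIs against 928 to 10184 in ICI libraries. Their part in the cell cycle values was not tested.

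The antibody targets and the cytokine genes of interest were low or patchy in cluster 15. Pdcd1, which encodes PD-1, had 14.1, 0, 0 and 115 CPM in ICI 1 to 4 and 10.3 in isotype, with a log2 fold of 2.61 ± 1.35 (SE, adjusted p = 0.999 by edgeR). Ctla4 had 0, 0, 0 and 157 CPM in ICI 1 to 4 and 34.2 in isotype, with a log2 fold of 1.08 ± 1.38 and an adjusted p of 0.999 by edgeR. In ICI 4 nearly all of it came from Myl10 Il2ra Dntt cells, of which 44 of 76 had a Ctla4 UMI, at 171 CPM against 178 in the other cells of that library. Siglech cells had 0 Ctla4 UMIs. Cd274, the ligand PD-L1, was seen with 12 UMIs over the ICI libraries (11 of them ICI 4) and 3 over the isotype library. Ifng had 2 UMIs, both in ICI 4, and Il17a and Il23r had 0 in all 116 cells. Ptprc had a UMI in 111 of the 116 cells, with 361, 409, 241 and 417 CPM in ICI 1 to 4 and 370 in isotype (log2 fold 0.17 ± 1.27, adjusted p = 0.999 by edgeR).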

How the data were processed

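Single-cell libraries were made with a 10x Genomics 5′ kit from sorted CD45+ thyroid cells, per the labels. The deposited table holds UMI counts per gene and cell, and the deposited cell table holds the authors' clusters, libraries, cell cycle score and phase of each cell, and percent of mitochondrial UMIs. The submitters' processing notes name Cell Ranger, Seurat and build mm10. UMI sums per cell equalled the authors' totals in all 10275 cells. ICI 1, ICI 2 and ICI 3 have 1523, 1219 and 1163 cells here, and their labels give 1688, 1234 and 1178.

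Members, sets and lists were chosen with earlier results of these data known. CPM was computed from a gene's summed UMIs over all UMIs of the same cells. Leading genes needed a UMI in at least 20% of the cluster's cells. A set was named X-like where a marker list had genes in its top 10 by fold and every gene of that list stood 1.5-fold above the other cells, a rule applied with the values seen. Named genes were 20 leading and 5 lowest genes, genes past the threshold, up to 6 per described list, up to 10 each way against like clusters, and Il17a, Il23r, Ifng, Pdcd1, Ctla4, Cd274 and Ptprc. The genes compared between ICI 4 cells, the Siglech cell genes and the promoter element were chosen after values were seen. Some genes these rules cover are summarised by count only.

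Counts summed per library with at least 5 cells were tested with edgeR 4.0.16 (quasi-likelihood, TMM, filterByExpr with a minimum count of 10), tested on simulated data first. With 1 isotype library, p-values measure only the spread between ICI libraries of pooled mice, which may not be independent of each other. Alternatives were RLE scaling, DESeq2 1.42.0, no filter, 10 cells per library, left-out libraries, top doublet scores (Scrublet in scanpy 1.11.5) and shared barcodes. Scripts ran in Python 3.11.15 and R 4.3.3.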

Additional observations from a re-analysis of the deposited data

Results flagged for a closer look

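Among the 4 ICI libraries, 40 sets of values were examined for a sample far from the others (gap to the nearest value over the range above 0.829), and 14 had one. For normally spread, independent values chance flags about 1 in 20. That rate does not apply here, since values at 0 in all but 1 library are always flagged. Several items also rest on the same cells. In shares of cells, ICI 4 stood apart with 1.51% in Myl10 Il2ra Dntt cells (the others 0 to 0.197%) and ICI 1 with 0.263% in Jchain cells (the others 0 to 0.0399%). In CPM over the cluster, ICI 4 stood apart for Dntt (1227), Myl10 (594), Ctla4 (157), Pdcd1 (115), Ifng (2.19, from 2 UMIs) and Ighv4-1 (1.1, from 1 UMI). ICI 1 stood apart for Jchain (52278), Slpi (12527) and Mzb1 (4072), and for Plac8 as the lowest (325). In Siglech cells, ICI 4 had a median mitochondrial share of 7.03% (the others 1.6 to 1.78%), over 4 cells, and ICI 3 had 20% of its 5 cells outside G1 phase (the others 0%).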

How the results depend on the processing

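No paired analysis was possible because the labels give no replicate numbers shared by the groups. The share of cluster 15 was lower in ICI under 7 of 8 alternatives and 0.0376 percentage points higher with ICI 1 to 3 summed. That setting counts ICI 1 to 3, which have related titles, as 1 library. Leaving out 1 ICI library gave -0.542 to -0.107. edgeR called 0 genes with at least 10 cells, without top doublet scores, without lower copies of shared barcodes and with RLE scaling, 0 to 13 without 1 ICI library (13 without ICI 1, 0 without ICI 3 or ICI 4), and 13 with no filter; DESeq2 called 23 (13 higher, 10 lower). At an unadjusted p under 0.05 these fits had 95 to 425 genes by edgeR and 49 by DESeq2. Among the named genes 0 or 1 passed. The plasma cell median was -2.76 without ICI 1 and 2.21 without ICI 4. The fits with at least 10 cells, without shared copies and without ICI 3 are 1 and the same. Of the 20 leading genes, 13 were shared with no filter on cells, 7 with at least 50% of cells, 7 with pooled cells, and 11 to 17 without 1 library (11 without ICI 3 or ICI 4). Log2 folds that turned sign without 1 library ranged from -3.67 (without ICI 1) to 0.59 (without ICI 4) for Mzb1, -4.04 (ICI 1) to 2.44 (ICI 4) for Jchain and -0.52 (ICI 1) to 0.61 (ICI 3) for Ptprc, and from -2.59, -0.77 and -0.41 (ICI 4) to 1.04, 1.77 and 0.62 (ICI 3) for Myl10, Dntt and Il2ra. Mzb1 was also 0.57 without shared copies or libraries under 10 cells, and Ptprc -0.24 without top doublet scores. ICI 2 was in none of these fits. The cause was not tested. With 4 to 14 cells of the cluster per library, all but ICI 4 are limited by cell number. Under alternatives chosen after seeing the data (other count minimums, top doublet scores or shared copies left out), Siglech cells made up 17.7% to 19.6% of the cluster, Jchain cells 9.48% to 11.2% and the remaining cells 69.8% to 72.6%.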
